A study of Mus musculus with 5 samples.

Results

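The genes followed here, 9 in number, mark mast cells and basophils: Ms4a2, Fcer1a, Il1rl1, Cpa3, Tpsb2, Tpsab1, Prss34, Mcpt8 and Hdc. They were taken by symbol from the GENCODE vM21 annotation of the mouse genome GRCm38, and all 9 were found among the 21755 protein-coding genes of the autosomes and the X chromosome. For each gene the promoter (1000 bp on each side of the annotated start), the gene body and the 10 kb on each side of the gene were measured. The measure was the methylation level, the percentage of sequenced calls at CpGs (a cytosine followed by a guanine) that read as methylated after bisulfite conversion, with both strands of a CpG summed into a dyad. The data are whole-genome bisulfite sequencing of leukemic blasts from 5 mice, which was made to see how loss of TET2 changes DNA methylation in acute myeloid leukemia (AML) driven by CEBPA mutation. All 5 leukemias were Cebpa-/p30, with a deleted Cebpa allele and a remaining allele from which p30 alone is made, the shorter form of this myeloid transcription factor. The 2 genotypes compared were Cebpa-/p30 Tet2+/+ (2 libraries, replicates 23 and 24) and Cebpa-/p30 Tet2-/- (3 libraries, replicates 5, 7 and 8), on the C57BL/6 strain. Per the study's methods, donor bone marrow with floxed Cebpa, with or without floxed Tet2, and with Mx1-Cre was transplanted into lethally irradiated congenic females, the floxed alleles were deleted by Poly(I)-Poly(C), and marrow was frozen when the recipients were moribund. Mx1-Cre responds to interferon and is not restricted to a single blood cell type. Cells were sorted as live, donor-derived (CD45.2+) cells without CD3, B220 or Ter119, a gate that removes T cells, B cells and erythroid cells but would keep mast cells and basophils. Recipients may share a donor, which the labels do not tell, so p-values measure the spread between these 5 libraries.

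Mast cells and basophils are granulocytes that carry the high-affinity receptor for IgE and release stored mediators when an antigen crosslinks it. Ms4a2 encodes the beta subunit of that receptor and Fcer1a the alpha subunit that binds IgE, and Il1rl1 encodes ST2, the receptor for interleukin 33. The granules hold proteases bound to heparin, among them carboxypeptidase A3 (Cpa3), the tryptases (Tpsb2 and Tpsab1) and, in basophils, Prss34 and Mcpt8. Hdc encodes histidine decarboxylase, the enzyme that makes histamine. TET2 oxidises 5-methylcytosine, a step in the removal of methylation, and bisulfite sequencing does not separate 5-methylcytosine from 5-hydroxymethylcytosine.

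The libraries held 63111735 to 110752967 CpG calls, or 2.96 to 5.19 calls per dyad. The level over all CpGs was 67.3% and 62.3% in Tet2+/+ and 70.9%, 74.8% and 68.4% in Tet2-/- (replicates 5, 7 and 8 in this order here and below), so the genotypes did not overlap and replicate 24 was lowest. Over the coding part of the last Tet2 exon (chromosome 3, 133466740 to 133468190, 27 dyads) there were 83 and 111 calls in Tet2+/+ and 0 calls in each Tet2-/- library, as the labels say. Promoters of the myeloid marker genes were mixed in Tet2+/+: the median level was 12.5% for the 5 neutrophil granule genes (Mpo, Elane, Prtn3, Ctsg and Ltf) and 68.3% for the 3 monocyte genes (Csf1r, Ly6c2 and Ccr2). The median was 56.5% for the 9 mast cell and basophil genes, 62.9% for the 2 eosinophil genes, 43.1% for the 3 megakaryocyte genes, 19.8% for the 2 erythroid genes, 58.3% for the 2 B cell genes and 66.6% for the 2 T cell genes. None of these marker promoters passed the test between genotypes. The median difference (Tet2-/- minus Tet2+/+) was 10.7 points for the 9 members, 14.1 for T cell and 13.9 for B cell genes. It was 7.89 points for erythroid, 6.02 for eosinophil, 5.90 for monocyte, 0.88 for neutrophil granule and -5.44 for megakaryocyte genes. In DNA from mixed cells, a change in the share of a cell type and a change of methylation within cells cannot be told apart.

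The sequences below are those on which the results turn, with each CG in capitals. The first pair lies inside genes, in the called tiles described further on, and is the stretch of 300 bases of each tile with the most CpGs. The Ms4a2 window, chr19:11618724-11619023 on the minus strand (GRCm38.p6), starts 4696 bp after the gene's start and overlaps its coding exons. The Hdc window, chr2:126597679-126597978 on the minus strand, starts 21321 bp after the start of that gene and follows the start of the transcript Hdc-202, which begins 21038 bp into the gene. This window also holds 99 coding bases of the transcript Hdc-201.
Ms4a2 window: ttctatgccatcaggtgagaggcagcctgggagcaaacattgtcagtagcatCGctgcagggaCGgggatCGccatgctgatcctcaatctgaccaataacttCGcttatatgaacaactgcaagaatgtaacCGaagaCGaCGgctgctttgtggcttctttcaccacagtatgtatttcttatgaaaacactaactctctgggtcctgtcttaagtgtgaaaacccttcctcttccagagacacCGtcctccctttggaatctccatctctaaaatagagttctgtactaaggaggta
Hdc window: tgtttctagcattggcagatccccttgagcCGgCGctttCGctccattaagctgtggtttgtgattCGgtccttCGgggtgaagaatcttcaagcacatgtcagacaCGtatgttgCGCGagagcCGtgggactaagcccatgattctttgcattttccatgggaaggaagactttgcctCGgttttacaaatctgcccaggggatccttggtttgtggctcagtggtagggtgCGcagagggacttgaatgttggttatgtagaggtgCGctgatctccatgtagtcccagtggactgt
At the 8 CpGs of the Ms4a2 window, methylated calls were 2 of 25 and 0 of 44 in the Tet2+/+ libraries, and 34 of 50, 35 of 38 and 21 of 29 in the Tet2-/- libraries. At the 12 CpGs of the Hdc window they were 1 of 67 and 11 of 56 in Tet2+/+, and 26 of 36, 30 of 40 and 13 of 18 in Tet2-/-. Every one of these 8 and 12 CpGs had a higher level in the summed Tet2-/- calls. Both windows come from tiles picked by the test, and their values describe those tiles without adding a test.

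RefSeq promoters were found for 7 of the 9 genes, in 8 sequences. The 4 printed next are the 250 bases before the RefSeq start for the genes with the lowest promoter levels, Hdc and Cpa3, and for the distal and proximal starts of Il1rl1, whose levels differ from each other in all 5 libraries.
Cpa3, chr3:20242182-20242431, minus strand: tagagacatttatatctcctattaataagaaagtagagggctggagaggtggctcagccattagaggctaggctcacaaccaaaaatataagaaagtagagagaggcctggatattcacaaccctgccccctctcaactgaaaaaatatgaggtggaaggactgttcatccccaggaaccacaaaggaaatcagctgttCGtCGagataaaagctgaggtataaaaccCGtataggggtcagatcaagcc
Hdc, chr2:126618679-126618928, minus strand: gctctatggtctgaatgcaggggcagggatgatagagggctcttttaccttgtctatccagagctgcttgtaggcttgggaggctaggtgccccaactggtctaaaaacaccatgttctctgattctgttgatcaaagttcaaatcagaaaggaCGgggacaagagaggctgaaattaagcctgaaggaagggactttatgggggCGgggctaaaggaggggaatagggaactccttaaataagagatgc
Il1rl1 distal, chr1:40429320-40429569, plus strand: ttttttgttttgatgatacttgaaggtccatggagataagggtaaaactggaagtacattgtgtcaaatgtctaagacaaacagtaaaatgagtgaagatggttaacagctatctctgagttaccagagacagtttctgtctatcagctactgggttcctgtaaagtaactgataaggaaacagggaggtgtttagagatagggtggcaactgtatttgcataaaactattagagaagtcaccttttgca
Il1rl1 proximal, chr1:40439379-40439628, plus strand: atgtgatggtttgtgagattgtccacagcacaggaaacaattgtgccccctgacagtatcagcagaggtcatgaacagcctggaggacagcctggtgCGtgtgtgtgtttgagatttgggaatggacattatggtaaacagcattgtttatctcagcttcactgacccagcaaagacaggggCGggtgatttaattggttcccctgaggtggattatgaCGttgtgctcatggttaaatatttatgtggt
The RefSeq start of Hdc lies 621 bp inside the GENCODE start around which its promoter level was measured, while those of Cpa3 and of the distal Il1rl1 promoter are the GENCODE starts. CpGs are few here. The stretch before the Cpa3 start holds 3, that before Hdc 2, the proximal Il1rl1 stretch 3 and the distal one 0. The 2 CpGs before Hdc had 0 methylated of 17 calls in Tet2+/+ and 0 of 29 in Tet2-/-. At the 3 CpGs before Cpa3, 4 of 42 calls were methylated in Tet2+/+ and 4 of 53 in Tet2-/-, and at the 3 proximal CpGs of Il1rl1 24 of 28 and 42 of 48. Over the 8 member promoter sequences (250 bases before to 50 after the start) the median was 2.5 CpGs, against 7 in all 32851 RefSeq promoters. The motif GATAA, the core bound by GATA factors, was searched on both strands and was present in 6 of the 8 member sequences and in 25.4% of all promoters. CATGTG was present in 2 of 8 (14.2% of all), CACGTG in 0 of 8 (7.15%) and TTGCNNAA, the core of the C/EBP site, in 2 of 8 (10.8%), and no match overlapped a match of another motif. Il1rl1 enters these counts with both its starts, and the background was not matched for base composition. Such matches describe letters and not binding.

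The 9 genes were next compared between genotypes in each region, with the quasi-likelihood test of edgeR, fitted to the 2 kinds of call (methylated, unmethylated), and with Benjamini-Hochberg adjustment over all genes. A gene is called where the adjusted p was under 0.05. In promoters none of the 9 was called, against 1.06% of 19455 promoters called higher in Tet2-/-, and none of the 9 had an unadjusted p under 0.05 (3521 of all 19455 did). The likelihood ratio test and limma called none either, where over all 19455 promoters they called 1074 and 77. All 9 promoter differences were positive. Their median was 10.7 percentage points, against 2.22 for all promoters, most of which started lower (median 13.3% in Tet2+/+), and it was 5.57 points without Tet2+/+ replicate 24 (1.54 for all promoters). In 5 of the 9 (Ms4a2, Tpsb2, Prss34, Mcpt8 and Hdc) every Tet2-/- library lay above both Tet2+/+ libraries, as in 32.8% of all promoters. In gene bodies 2 of 9 were called, Prss34 and Ms4a2, where 15.5% of 20715 bodies were called higher. All 9 body differences were positive with a median of 11.6 points (4.95 over all bodies), which was 6.77 points without Tet2+/+ replicate 24 (3.04 over all bodies). An unadjusted p under 0.05 was found for 5 of the 9 and for 6041 of all 20715 bodies, and 6 of the 9 did not overlap between genotypes (46% of all bodies). In the upstream 10 kb, 1 of 9 was called (Tpsb2) against 13% of 21311, and 6 of 9 did not overlap against 44.7%. In the downstream 10 kb, 1 of 9 was called (Hdc) against 16.4% of 21328, and 4 of 9 did not overlap against 52.7%. The member medians on the sides were 8.87 and 8.76 points, beside 5.65 and 6.44 over all genes, and without Tet2+/+ replicate 24 they were 4.81 and 3.58, beside 3.81 and 4.49 over all genes. With 9 genes a region, counts of 0 to 2 calls lie near these backgrounds and are no result about the members. Tet2+/+ library 24 was below library 23 in 7, 9, 7 and 8 of the 9 genes in promoters, bodies, upstream and downstream sides. Without library 24 the member calls were lost, as were most calls over all genes in each region. Without library 23 the member calls on the sides were lost, with fewer calls over all genes too. Either fit leaves 1 Tet2+/+ library, which is assumed to vary like the Tet2-/- libraries. The differences of the called regions without library 24 were 13.8 points in the Ms4a2 body, 15.0 in the upstream side of Tpsb2 and 11.03 in the downstream side of Hdc, beside 16.9, 16.9 and 13.1 with it, and 13.3 in the Prss34 body beside 24.1.

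**Figure D1:**
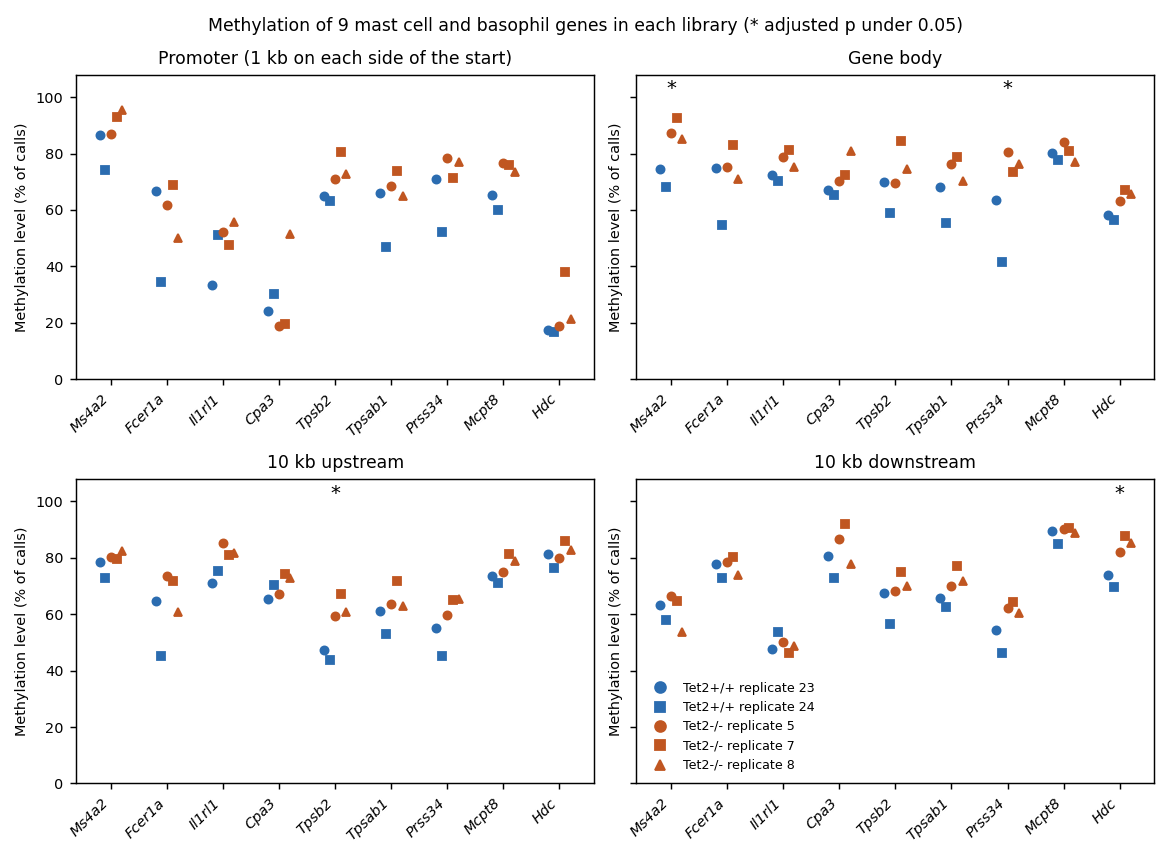
Methylation level (% of calls) of the 9 genes in each of the 5 libraries, for the promoter, the gene body and the 10 kb on each side; blue points are Tet2+/+, orange points are Tet2-/-, and an asterisk marks edgeR adjusted p under 0.05. Cpa3 and Hdc have the lowest promoters (Tet2+/+ means 27.3% and 17.1%), and Ms4a2 the highest (80.3%).

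**Figure D2:**
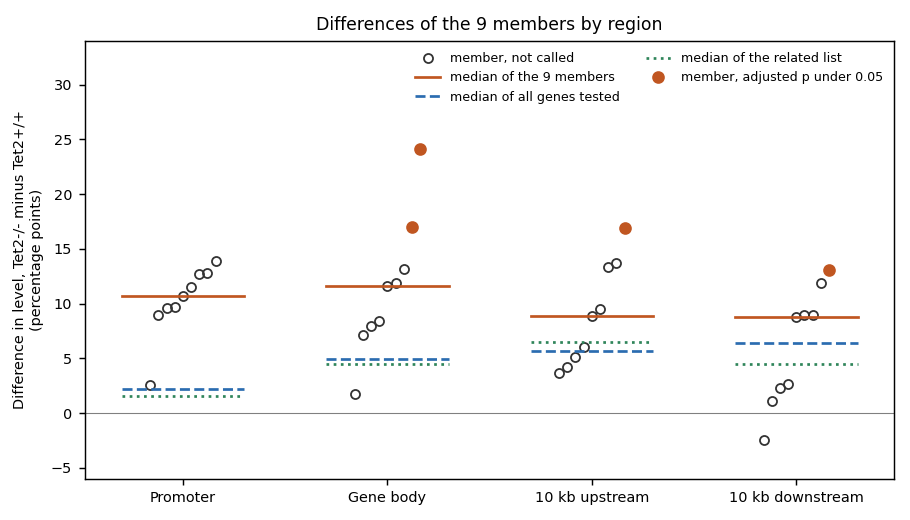
Difference in methylation level (Tet2-/- minus Tet2+/+, percentage points) of each member in each region, with the medians of the members, of all genes tested and of the 47 related genes as lines and filled points for called genes. With all 5 libraries the largest difference is that of the Prss34 body, 24.1 points (13.3 without Tet2+/+ replicate 24), and the single negative one is the downstream side of Il1rl1, -2.47 points.

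Among the receptor genes, Ms4a2 had the largest difference in the gene body. Its body (chromosome 19, 11615523 to 11623719, 46 dyads) was at 74.6% and 68.2% in Tet2+/+ and at 87.4%, 92.4% and 85.1% in Tet2-/-. The libraries of the 2 genotypes did not overlap, and the mean rose from 71.4% ± 4.51 (SD, n = 2) to 88.3% ± 3.75 (SD, n = 3), a difference of 16.9 points (edgeR adjusted p = 0.00814). The adjusted p ran from 0.00428 to 0.365 over 11 alternatives, 8 of which kept the call. The called Ms4a2 tile described further on lies inside the body and holds 17 of its 46 dyads, so these calls are not independent. The Ms4a2 promoter, with only 7 dyads and 22 to 38 calls per library, was highly methylated in all libraries, at 86.5% and 74.1% against 86.8%, 93.1% and 95.5% (edgeR adjusted p = 0.441).

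The promoter of Fcer1a, which encodes the IgE-binding subunit, varied more within Tet2+/+ than between the genotype means. It (chromosome 1, 173226214 to 173228214, 11 dyads) was at 66.7% and 34.3% in Tet2+/+ and at 61.7%, 68.8% and 50% in Tet2-/-. Replicate 24 was lowest of the 5, and the other Tet2+/+ library, replicate 23, lay above 2 of the 3 Tet2-/- libraries. The difference of 9.67 points did not pass (edgeR adjusted p = 0.745), and without replicate 24 it was -6.52 points. The body had 75.0% and 54.5% against 75.4%, 82.9% and 70.9% (edgeR adjusted p = 0.288).

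Il1rl1 has a distal start, which is the gene's annotated start (chromosome 1, 40429570), and proximal starts about 10 kb farther in. In mice the distal promoter is the one known from mast cells and other blood cells, and the proximal promoter the one known from fibroblasts. Around the distal start (14 dyads) levels were 33.3% and 51.0% in Tet2+/+ and 52.2%, 47.5% and 55.6% in Tet2-/-, with no call (edgeR adjusted p = 0.627). Around the proximal start of Il1rl1-202, 10057 bp farther in, they were 82.4% and 86.8% against 84.8%, 96.6% and 90.7%. The proximal start was thus more methylated than the distal one in each of the 5 libraries. A start between them, 7019 bp in, stood at 64.4% to 75.3% in the 5 libraries. None of the Il1rl1 starts passed the test between genotypes, and neither did the body, at 72.3% and 70.1% against 78.8%, 81.1% and 75.2% (edgeR adjusted p = 0.0993). On its downstream side, which lies in Il18r1, Il1rl1 gave the only lower mean in Tet2-/- among all member regions, 50.8% ± 4.32 (SD, n = 2) against 48.3% ± 1.96 (SD, n = 3). That difference of -2.47 points was not called (edgeR adjusted p = 0.793).

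**Figure D3:**
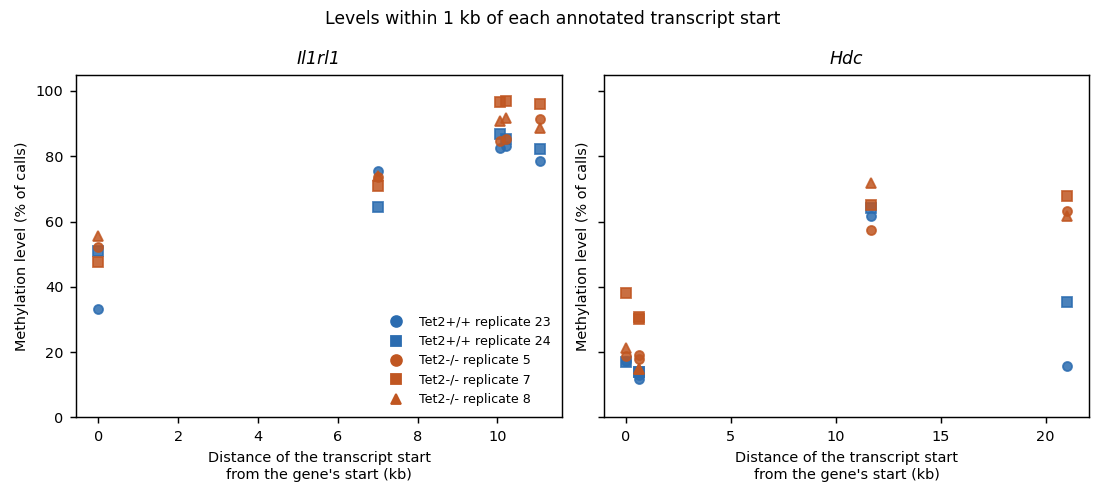
Methylation level (% of calls) within 1 kb of each annotated transcript start of Il1rl1 and Hdc, by distance of the start from the gene's own start in kb, for each library. Levels at Il1rl1 rise from the distal start to the proximal starts in every library, and at Hdc the genotypes part at the start 21038 bp into the gene.

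Among the granule genes, Prss34, a tryptase-like protease of basophils, showed the largest body difference. Its body (chromosome 17, 25298394 to 25300165, 29 dyads) was at 63.4% and 41.7% in Tet2+/+ and at 80.5%, 73.3% and 76.1% in Tet2-/-. The libraries did not overlap, and the mean was 52.5% ± 15.4 (SD, n = 2) against 76.6% ± 3.62 (SD, n = 3), a difference of 24.1 points (edgeR adjusted p = 0.00734), above 99.2% of all bodies. Much of it rested on replicate 24: without that library the difference was 13.3 points (edgeR adjusted p = 0.623, the highest of 11 alternatives, whose lowest was 0.00164). The Prss34 promoter was at 71.0% and 52.3% against 78.2%, 71.3% and 77.1% and was not called (edgeR adjusted p = 0.313), and its difference of 13.9 points was 4.53 points without replicate 24. Body and promoter share dyads, since the gene is 1772 bp long.

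The tryptase genes Tpsb2 and Tpsab1 lie head to head on chromosome 17, and their upstream sides are separate parts of the interval between them. The upstream 10 kb of Tpsb2 (91 dyads) was at 47.4% and 43.7% in Tet2+/+ and at 59.3%, 67.1% and 60.9% in Tet2-/-, a rise of 16.9 points without overlap (edgeR adjusted p = 0.0256). The adjusted p ran from 0.0153 to 0.424 over 12 alternatives, 7 of which kept the call, and it was 0.0735 without replicate 23 (18.7 points) and 0.424 without replicate 24 (15.0 points). The upstream 10 kb of Tpsab1, on the other side of the interval, was at 61.3% and 53.1% against 63.5%, 71.7% and 63.0%, a difference of 8.87 points (edgeR adjusted p = 0.224) that was 4.81 points without replicate 24. Their promoters stood at 65.0% and 63.0% against 70.9%, 80.4% and 72.7% (Tpsb2) and at 66.2% and 46.8% against 68.5%, 74.0% and 65.1% (Tpsab1), with edgeR adjusted p of 0.396 and 0.420.

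Mcpt8, a granzyme-like protease of basophils, differed in its promoter by 12.8 points, from 65.2% and 59.8% to 76.6%, 76.1% and 73.3%. These 5 values did not overlap between genotypes, but the edgeR adjusted p was 0.327. Its body (26 dyads) hardly moved, at 80.2% and 77.7% against 84.2%, 80.8% and 77.1%, the smallest body difference of the 9 (1.78 points, edgeR adjusted p = 0.821).

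At Cpa3 a single library, Tet2-/- replicate 8, stood apart. Its promoter (chromosome 3, 14 dyads) was at 24.3% and 30.3% in Tet2+/+ and at 18.8%, 19.4% and 51.4% in Tet2-/-, so 2 of the Tet2-/- libraries were the lowest of the 5 and replicate 8 the highest. The mean difference of 2.58 points became -8.17 points without replicate 8, and neither passed (edgeR adjusted p = 0.988 and 0.599). The same library stood apart farther into the gene. In the 2 kb tile from 181 bp after the start it was at 80.0%, with 24.1% to 33.3% in the other 4, and in the tile from 2181 bp at 45%, with 16.7% to 28.9% in the others. In the tile from 4181 bp replicate 8 was at 96.3% beside 83.3% in Tet2+/+ replicate 24 and 44.0% to 54.1% in the other 3. The tile that spans the start itself, by contrast, was at 15.2% to 21.4% in all 5 libraries. The Cpa3 body as a whole was at 67.0% and 65.3% against 70.4%, 72.3% and 80.8% (edgeR adjusted p = 0.211).

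Hdc had the least methylated promoter of the 9. Its promoter (chromosome 2, 33 dyads, 143 to 260 calls per library) was at 17.3% and 16.9% in Tet2+/+ and at 18.9%, 38.1% and 21.3% in Tet2-/-, where replicate 7 stood apart (edgeR adjusted p = 0.469). The downstream 10 kb (110 dyads) was called, at 74.0% and 69.8% against 81.9%, 87.8% and 85.2%, from 71.9% ± 2.93 (SD, n = 2) to 85.0% ± 2.97 (SD, n = 3). This rise of 13.1 points (edgeR adjusted p = 0.0313, 0.0152 to 0.561 over 12 alternatives, 6 of which kept the call) lies in a stretch that overlaps the neighbouring gene Slc27a2. Within 1 kb of the start of Hdc-202, a processed transcript that begins 21038 bp into the gene, levels were 15.8% and 35.4% in Tet2+/+ and 63.2%, 67.7% and 61.8% in Tet2-/-. This rise of 38.6 points passed (edgeR adjusted p = 0.0252 over all other starts of protein-coding genes). None of the remaining other starts of the members passed. The share of all other starts that passed was not worked out, and the test at these starts was not repeated under the alternatives. The body as a whole differed less, at 58.3% and 56.6% against 63.1%, 67.2% and 65.8% (edgeR adjusted p = 0.137).

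To see where along the genes the differences lay, the genome was cut into 2 kb tiles. Of 155 tiles that overlap the genes or their sides, some only in part, 133 held enough calls, and 3 of them were called, where 2.69% of 900641 tiles genome-wide were called higher. In 62 of the 133 every Tet2-/- library lay above both Tet2+/+ libraries, beside 33.5% of all tiles, and the median difference was 8.14 points against 6.00. This held for 10, 9 and 8 of the 12 tiles each of Tpsb2, Prss34 and Tpsab1. These genes and their sides lie within 1 stretch of chromosome 17 (25288394 to 25379098). It held for 13 of 26 at Il1rl1, 8 of 24 at Hdc, 5 of 11 at Ms4a2, 4 of 9 at Mcpt8, 3 of 16 at Cpa3 and 2 of 11 at Fcer1a. Tiles next to each other are not independent, so these values are no result about the members. The strongest called tile was in Ms4a2, from 3719 to 5718 bp after the start (chromosome 19, 11618001 to 11620000, 17 dyads). It was at 35.4% and 29.0% in Tet2+/+ and at 75.5%, 87.5% and 69.6% in Tet2-/-, which is a rise of 45.3 points with a gap between the genotypes of more than the whole spread within either. The edgeR adjusted p was 0.000725, with 0.000271 to 0.253 over 8 alternatives, 6 of which kept the call (limma adjusted p = 0.0108). The tiles on either side in the gene that held enough calls, from -281 and from 5719 bp, were at 88.0% to 97.8% in all 5 libraries, so the low level in Tet2+/+ was a dip within a methylated gene. Of its 17 dyads 10 were below 50% in the summed Tet2+/+ calls and 1 in the summed Tet2-/- calls, and the 8 in the window printed above made up most of the dip.

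The second called tile lies in Hdc from 21299 to 23298 bp after the start (chromosome 2, 126596001 to 126598000, 25 dyads). It overlaps the stretch within 1 kb of the Hdc-202 start and shares 15 dyads with it, so these calls are not independent. It rose from 30.6% and 42.9% to 66.7%, 76.2% and 74.0%, by 35.5 points (edgeR adjusted p = 0.00838, 0.0110 to 0.258 over 8 alternatives, 4 of which kept the call). Those 15 shared dyads were all below 50% in the summed Tet2+/+ calls, of which 5 stayed below 50% in Tet2-/-. The third called tile lies 11696 to 13695 bp from the Tpsb2 start (chromosome 17, 25378001 to 25380000, 44 dyads). The tile reaches past the end of the downstream side (25379098) and lies inside the neighbouring calcium channel gene Cacna1h. It rose from 56.1% and 54.9% to 78.2%, 88.5% and 79.4% (26.6 points, edgeR adjusted p = 0.0257, 0.0312 to 0.613 over 8 alternatives, 2 of which kept the call).

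The other 6 genes had no called tile. The tile with the smallest adjusted p of Fcer1a ran from -2786 to -787 bp relative to its start and was at 40.6% and 20% against 52.8%, 77.8% and 55.3%, a difference of 31.6 points without overlap (edgeR adjusted p = 0.0787). Part of this rested on Tet2+/+ replicate 24, at 20%: the Tet2-/- mean was 62.0%, beside 40.6% in replicate 23. The tiles with the smallest adjusted p of Prss34 and Tpsab1 spanned the start and differed by 20.5 and 19.3 points (edgeR adjusted p = 0.117 and 0.178), which became 12.1 points each without Tet2+/+ replicate 24. Those of Il1rl1, Cpa3 and Mcpt8 differed by 12.5 to 13.6 points, with edgeR adjusted p of 0.132, 0.251 and 0.304, and by 3.71, 10.2 and 7.52 points without Tet2+/+ replicate 24. Of the 133 tested tiles 119 were higher in Tet2-/-. They included all 12 of each of Prss34, Tpsab1 and Tpsb2, which lie in 1 stretch of chromosome 17. All 11 of Fcer1a and 15 of 16 of Cpa3 were higher too. Lower tiles were 5 of 26 in Il1rl1, 3 of 11 in Ms4a2, 3 of 24 in Hdc and 2 of 9 in Mcpt8. The median difference of all tiles genome-wide was 6.00 points, and the share of them that were higher was not worked out.

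**Figure D4:**
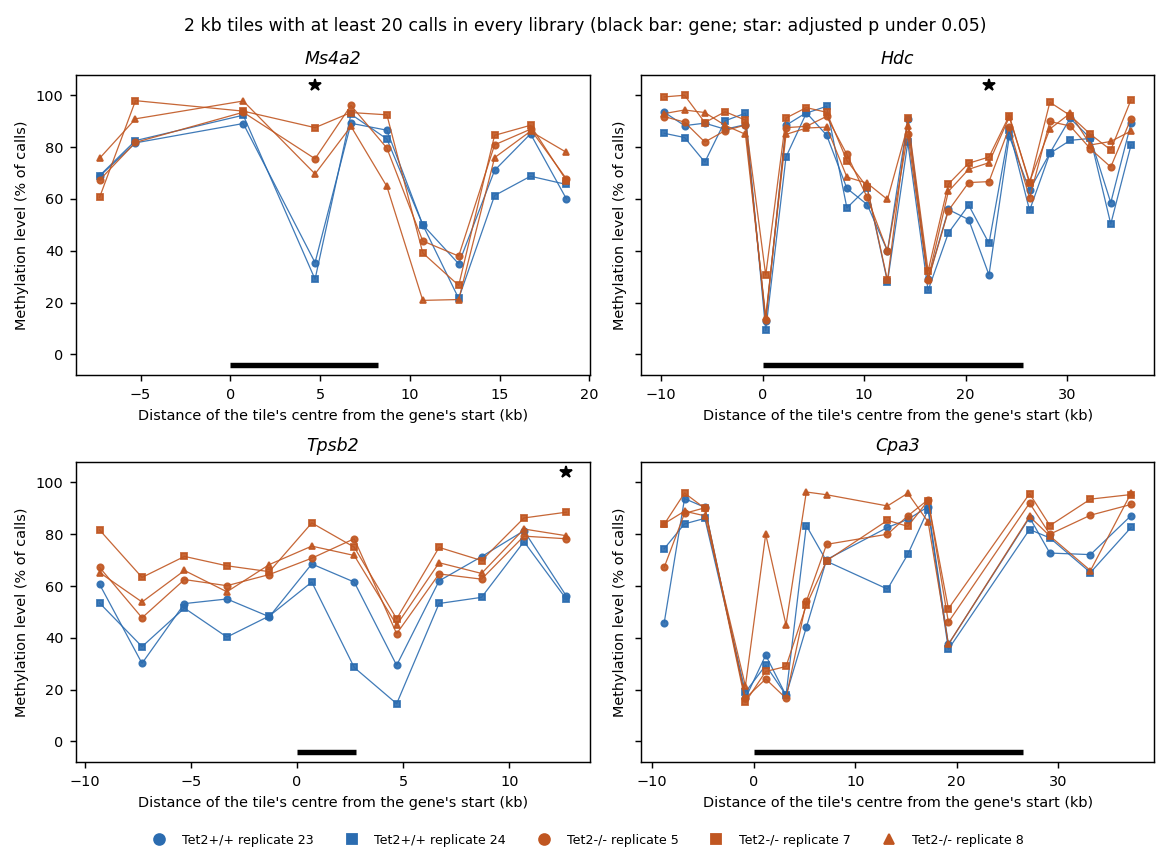
Methylation level (% of calls) of 2 kb tiles along Ms4a2, Hdc, Tpsb2 and Cpa3 against distance from the gene's start in kb, 1 line per library; the black bar is the gene and a star marks edgeR adjusted p under 0.05. The dip of the Tet2+/+ lines in Ms4a2 (35.4% and 29.0%) is not seen in the Tet2-/- lines (69.6% to 87.5%). In Cpa3 replicate 8 leaves the other 4 libraries just after the start, in a tile where it had 25 calls.

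**Figure D5:**
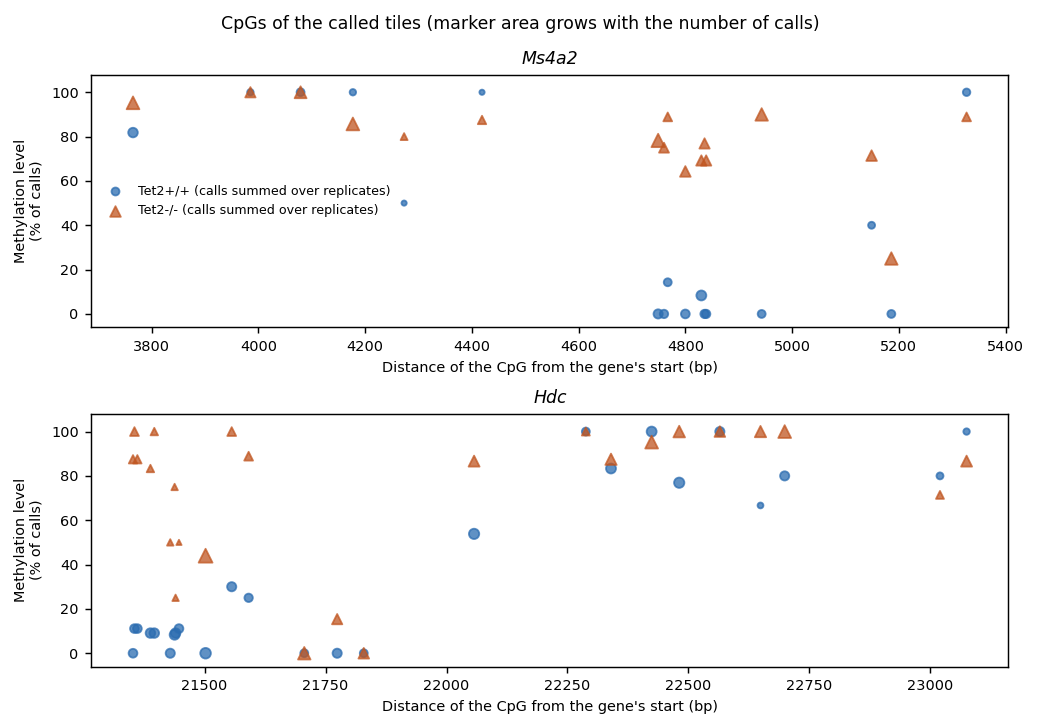
Level of each CpG of the called tiles of Ms4a2 and Hdc (% of calls summed over the replicates of a genotype) against its distance from the gene's start in bp; the area of a marker grows with the number of calls. Of the 17 Ms4a2 CpGs 10 lie below 50% in Tet2+/+ and 1 in Tet2-/-, and of the 25 Hdc CpGs 15 and 5.

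Beyond the 9 genes, 47 related genes of mast cell and basophil biology were read in the same way. In promoters 43 held enough calls and 0 were called by edgeR's quasi-likelihood test or by limma, 5 had an unadjusted p under 0.05, 2 were called by the likelihood ratio test, and 13 did not overlap with Tet2-/- above. Over all 19455 promoters 3521 had such a p, the likelihood ratio test called 1074, limma called 77 and 32.8% did not overlap. None of these counts is a result about the list. Of the 43 promoters 32 were higher and 11 lower in Tet2-/-. Most of these promoters had low levels, with a median Tet2+/+ level of 12.1%, and their median difference was 1.51 points. By role, the largest differences among the promoters tested were those of Lat, an adaptor of IgE receptor signalling (19.8% and 10.4% against 39.7%, 30.1% and 34.5%, edgeR adjusted p = 0.0916), and of the protease Tpsg1 (31.1% and 16.9% against 53.3%, 37.5% and 37.7%, edgeR adjusted p = 0.239). The Tpsg1 promoter overlaps the body and the downstream side of the member Tpsb2. In the role of Lat, the means of the signalling genes Btk and Lat2 differed by -14.7 and -13.3 points, which were not called either (edgeR adjusted p = 0.631 and 0.371). Each rested on 1 library: Btk was at 47.5% and 44.8% against 30.8%, 62.2% and 1.25%, or 0.37 points without replicate 8, and Lat2 at 9.14% and 39.3% against 8.93%, 14.7% and 9.23%, or 1.81 points without replicate 24. For cytokines, surface receptors, mediator synthesis and transcription factors they were those of Il4 (15.3 points), Csf2rb2 (14.2), Hpgds (6.21) and Gata1 (5.63), none of them called. Without Tet2+/+ replicate 24 the differences were 14.9 points for Lat, 11.8 for Tpsg1, 10.8 for Il4, 14.5 for Csf2rb2, 5.63 for Hpgds and 2.53 for Gata1. In bodies 2 of the 47 were called, the prostaglandin D2 receptor gene Ptgdr2 and the basophil surface enzyme gene Enpp3. Ptgdr2 rose from 59.1% and 54.0% to 78.2%, 70.4% and 78.9% (19.3 points, edgeR adjusted p = 0.00266), and Enpp3 from 71.1% and 64.6% to 76.9%, 81.8% and 72.2% (9.09 points, edgeR adjusted p = 0.0370). Without Tet2+/+ replicate 24 these differences were 16.8 and 5.83 points, and neither kept its call. Without Tet2-/- replicate 5 or 7 the Enpp3 body lost its call as well (edgeR adjusted p = 0.152 and 0.150). The Ptgdr2 body kept its call in both (edgeR adjusted p = 0.0401 and 0.000278). The sides gave 6 called genes upstream (Lat, Tpsg1, Ndst2, Tal1, Runx1 and Ptgdr2) and 7 downstream (Syk, Gzmb, Ptgs1, Stat5b, Runx1, Kit and Itga2). The upstream side of Tpsg1 overlaps the body and the called upstream side of Tpsb2, so these calls are not independent. All calls of this list were rises, and limma called none of these bodies and sides (limma adjusted p = 0.0645 for the Ptgdr2 body and 0.196 for the Enpp3 body). Over all genes limma called 117 of 20715 bodies and 0 sides. With 2 of 47 bodies, 6 of 47 upstream sides and 7 of 47 downstream sides the list was at or under the share called over all genes.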

How the data were processed

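The authors made the libraries with the Pico Methyl-Seq kit, sequenced them on a NextSeq 500, trimmed with Trim Galore 0.4.3, aligned to GRCm38 with Bismark 0.19.1 and Bowtie2, removed duplicates, and deposited counts of methylated and unmethylated calls for each CpG cytosine in each library. FastQC 0.11.7 is named in the submitters' processing notes. Here the deposited counts of both strands were summed per dyad and then over regions, and regions with at least 20 calls in each of the 5 libraries were tested. The level is methylated over all calls, with no weighting of libraries by depth, so shallow libraries carry more counting error.

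Tests used edgeR 4.0.16 (quasi-likelihood, with a term for each library and a methylation by genotype term) in R 4.3.3, with Benjamini-Hochberg adjustment over all regions of a kind and a threshold of 0.05. The alternatives were a minimum of 10 or 50 calls, edgeR's likelihood ratio test, limma 3.58.1 on log2 ratios of methylated to unmethylated calls (prior count 2) with and without subtraction of library medians, only dyads called in all 5 libraries, other region lengths, and leaving out each library. The values without a library for all genes and for related genes were chosen after seeing the data. Scripts were tested on simulated data. With 10 ways to split the 5 libraries, an exact permutation test cannot go below p = 0.1 (one-sided). The two-sided p of the permutation test used here doubles the one-sided one and cannot go below 0.2. Either way it can call nothing here. The rest used Python 3.11.15, numpy 2.4.6, pandas 2.3.3, scipy 1.17.1 and matplotlib 3.10.9. Sequences are from RefSeq (GRCm38.p6).

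The genes, the related list and the marker lists were chosen with earlier results of these data known. The text names all 9 genes, of each gene the called tiles or else the tile with the smallest adjusted p, of the related list each gene called in its promoter or body, and for each role the gene with the largest promoter difference. Btk and Lat2, genes called on the sides of the related list, other tiles of Cpa3 and Ms4a2, and other transcript starts were named after their values were seen.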

Additional observations from a re-analysis of the deposited data

How the results depend on the processing

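Depth limits small regions most, and with 2 Tet2+/+ libraries a single library can decide a call. Of the values for single regions under the alternatives, 442 kept their direction and side of the threshold, 30 lost the call, 2 gained one and 23 turned direction. Most of the 442 were of regions not called with the main settings. The 30 all fell on called regions. The call was lost in 3 of 11 alternatives (Ms4a2 body), 4 of 11 (Prss34 body), 5 of 12 (Tpsb2 upstream) and 6 of 12 (Hdc downstream). For the called tiles it was lost in 2 of 8 (Ms4a2), 4 of 8 (Hdc) and 6 of 8 (Tpsb2). The counts of called members were 0 under limma, with or without library medians subtracted, for bodies, upstream sides and downstream sides, and 0 upstream with sides of 5 kb. Over all genes limma called 117 of 20715 bodies and 0 sides. With library medians subtracted it called 1 body, 2 upstream sides and 26 downstream sides over all genes. The limma counts are thus no result about the members. The count of called tiles was 1 under limma and 0 with library medians subtracted. Leaving out each library in turn gave 0 to 2 called bodies, 0 to 2 upstream sides, 0 to 1 downstream sides and 0 to 4 tiles, and each of these counts was 0 without Tet2+/+ replicate 24, where 1 Tet2+/+ library is left and its spread is taken from Tet2-/-. Over all genes most calls in bodies and on the sides were lost too without that library. The called tiles then differed by 42.1 (Ms4a2), 41.6 (Hdc) and 26.0 points (Tpsb2), beside 45.3, 35.5 and 26.6 with all libraries. Over all fits that left out 1 library, the median member difference ran from 4.81 to 9.93 points upstream and from 3.58 to 10.55 points downstream. With sides of 5 kb it was 4.20 points downstream. With library medians subtracted, limma's log2 difference turned negative for the Cpa3 promoter (-0.39), the Mcpt8 body (-0.25), the upstream sides of Ms4a2 (-0.019), Cpa3 (-0.18) and Hdc (-0.030) and the downstream sides of Fcer1a (-0.44), Ms4a2 (-0.55), Tpsab1 (-0.017), Tpsb2 (-0.041) and Mcpt8 (-0.28). In points, the Mcpt8 body was -0.69 with dyads called in all 5 libraries. With sides of 5 kb Cpa3 upstream was -8.98, and downstream Fcer1a was -0.66, Ms4a2 -9.41 and Mcpt8 -3.53. Leaving out each library in turn moved the Cpa3 promoter between -8.17 (without Tet2-/- replicate 8) and 8.10, with -0.41 without Tet2+/+ replicate 23, and the Fcer1a promoter between -6.52 (without Tet2+/+ replicate 24) and 25.9. Downstream, Il1rl1 ran from -5.53 to 0.58, Fcer1a from -0.11 to 4.61 and Ms4a2 from -1.65 to 5.08, each at the turned end without Tet2+/+ replicate 24, and Ms4a2 was also -1.41 without Tet2-/- replicate 5 and -0.44 without replicate 7. None of these turned values was called in either direction, and apart from the construction of each alternative the cause was not tested. No paired analysis was possible because the groups share no replicate number.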
